A study of Mus musculus with 2 samples.

Results

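Genes of sterol and fatty acid metabolism were followed through the immune cells of mouse tumours. The set held 31 genes of the 32285 in the files, chosen by symbol from known pathway roles and not by their measured values. Earlier results of these data were known when the set was chosen. By role, 18 genes encode enzymes of sterol synthesis, 3 act in sterol regulation and transport, 6 in fatty acid synthesis, and 4 in cholesterol efflux under the liver X receptor (LXR). Wild type BALB/c mice carried subcutaneous MFC tumours, grown from a forestomach carcinoma line of the mouse, and CD45-sorted cells of these tumours were sequenced singly in droplets. The treated library came from mice that received thonzonium bromide, which is a cationic surfactant, at 50 mg/kg from day 6 and then every other day, and the control library from mice given PBS. Mice were sacrificed on day 10. The labels do not give the number of mice behind a library, and the same treatment protocol is attached to both samples. The groups therefore rest on each sample's treatment label.

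Cells make cholesterol from acetyl-CoA through mevalonate, isoprenoids, squalene and lanosterol. The enzymes are controlled together by the SREBP transcription factors, which are held in the endoplasmic reticulum by Insig proteins when sterols are plentiful and bind sterol regulatory elements when they are not. When oxysterols accumulate, LXR instead switches on the cholesterol exporters Abca1 and Abcg1 and the ubiquitin ligase gene Mylip, whose product degrades lipoprotein receptors. Macrophages are known for this efflux programme, and dividing lymphocytes for sterol and fatty acid synthesis to build new membranes.

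With 1 library per treatment, no difference can be tested or checked in replicates. The 95% intervals given in parentheses cover counting error only. Values describe these 2 libraries and not the treatment. After filtering, 5833 cells with 50871432 unique molecular identifiers (UMIs) remained in the thonzonium bromide library and 6419 cells with 44148296 UMIs in the PBS library, with medians of 7259 UMIs per cell in the thonzonium bromide and 4300 in the PBS library. A UMI of Ptprc, the CD45 gene, was found in 95.4% of thonzonium bromide and 88.2% of PBS cells. Erythroid barcodes, which the sort should remove, numbered 105 in the thonzonium bromide and 743 in the PBS library, and 9 kept barcodes occurred in both libraries. Cells were assigned to gates by UMIs of marker genes, and 4709 thonzonium bromide and 3695 PBS cells fell into the 6 gates compared. The 31 genes took 0.0709% of thonzonium bromide and 0.0699% of PBS UMIs.

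Promoter sequence was examined for motifs of the factors that control these genes. The windows are the 250 bases before each RefSeq transcription start in GRCm38.p6, and 24 of the 31 genes had a window. The sterol regulatory element, searched as TCACNCCAC on both strands, was found in 1.05% of all 32851 windows and, among the 24 genes, in that of Hmgcs1. The box bound by the SREBP partner NF-Y, searched as CCAAT on both strands, was found in 33.8% of all windows. The 24 genes had 30 windows, and the box was found in 20 of these, which belong to 19 genes. The direct-repeat LXR element, searched on both strands, was found in 0.0213% of all windows and in none of the 24. The motifs did not overlap in the windows printed. Hmgcs1 is shown because it was the sterol gene most reduced in NK cells and holds both elements (chr13:119690101-119690350, plus strand). Mylip (chr13:45389492-45389741, plus strand) and Abca1 (chr4:53159896-53160145, minus strand) are shown as LXR genes that were higher in B cells. Capitals mark TCACNCCAC, CCAAT or its reverse complement ATTGG.
Hmgcs1: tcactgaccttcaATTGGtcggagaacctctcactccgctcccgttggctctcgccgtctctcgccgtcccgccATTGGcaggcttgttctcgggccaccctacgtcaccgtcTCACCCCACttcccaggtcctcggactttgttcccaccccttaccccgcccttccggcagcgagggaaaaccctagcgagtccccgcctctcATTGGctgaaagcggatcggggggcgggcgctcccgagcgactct
Mylip: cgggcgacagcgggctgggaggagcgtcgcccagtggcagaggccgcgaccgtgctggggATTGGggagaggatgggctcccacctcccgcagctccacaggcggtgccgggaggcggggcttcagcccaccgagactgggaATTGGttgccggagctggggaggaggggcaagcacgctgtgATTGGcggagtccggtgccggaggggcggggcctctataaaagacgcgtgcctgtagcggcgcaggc
Abca1: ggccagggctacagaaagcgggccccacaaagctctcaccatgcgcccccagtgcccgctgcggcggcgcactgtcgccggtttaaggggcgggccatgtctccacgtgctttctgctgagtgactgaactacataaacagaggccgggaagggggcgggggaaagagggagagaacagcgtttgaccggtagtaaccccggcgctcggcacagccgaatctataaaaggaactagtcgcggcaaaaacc
The sterol regulatory element of Hmgcs1 begins 137 bases before the start, and its window holds 3 NF-Y boxes on the minus strand. The Mylip window also holds 3 NF-Y boxes, and the Abca1 window holds no exact match to the letters searched, which does not show that it lacks an LXR element. Of other genes described here, the Msmo1 window holds 3 NF-Y boxes, the Idi1 window 2, and those of Cyp51 and Insig1 hold 1 each. A match is a match of letters and does not show binding.

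The enzymes of sterol synthesis were lower in thonzonium bromide than in PBS T cells at several successive steps. Levels are in CPM, the UMIs of a gene divided by those of all genes in the cells of a gate and scaled to a total of 1000000. A 3' library counts molecules and not fragments, so the values do not grow with gene length. The T cell gate held 1267 thonzonium bromide and 1466 PBS cells. A gene was called when its ratio passed 1.5-fold with at least 50 UMIs in the 2 libraries together, a minimum met by 28 of the 31 genes in T cells. Of these 28, 5 genes were called lower and 0 higher, where 4.24% of all 10434 genes tested were called lower and 1.61% higher.

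The enzymes called lower in T cells lie in the middle of the pathway, from the isoprenoids to lanosterol and the steps after it. Idi1, which isomerises the basic isoprenoid unit, stood at 11.4 CPM in thonzonium bromide and 19.4 CPM in PBS T cells, a ratio of 0.589 (0.466 to 0.741). Sqle, the epoxidase of squalene and a rate-limiting step, stood at 3.40 CPM in thonzonium bromide and 6.54 CPM in PBS T cells, a ratio of 0.520 (0.337 to 0.791). Lss closes the sterol ring to give lanosterol. It stood at 4.44 CPM in thonzonium bromide and 6.73 CPM in PBS T cells, a ratio of 0.660 (0.446 to 0.969). Msmo1, which removes methyl groups from sterol intermediates, stood at 15.03 CPM in thonzonium bromide and 25.7 CPM in PBS T cells, a ratio of 0.585 (0.478 to 0.715). The gene called lower outside the enzymes was Insig1, the sterol-dependent brake on SREBP and itself an SREBP target, at 5.20 CPM in thonzonium bromide and 8.46 CPM in PBS T cells, a ratio of 0.614 (0.431 to 0.870). Each of these intervals lay below 1. Msmo1 and Insig1 stayed past 1.5-fold under each alternative in which they kept 50 UMIs, with log2 ratios of -0.89 to -0.60 for Msmo1 and -1.01 to -0.64 for Insig1. Idi1 and Sqle missed it only when each cell was scaled alike, at -0.48 and -0.54, and Lss missed it under 5 of 11 alternatives.

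A further group of enzymes was lower by less than 1.5-fold in T cells, with intervals below 1. Cyp51, the lanosterol demethylase, stood at 13.5 CPM in thonzonium bromide and 19.8 CPM in PBS T cells, a ratio of 0.682 (0.547 to 0.849). Hmgcs1, which commits acetyl units to the mevalonate route, stood at 20.04 CPM in thonzonium bromide and 25.8 CPM in PBS T cells, a ratio of 0.778 (0.646 to 0.935). Fdps and Fdft1, which make farnesyl diphosphate and join it into squalene, had ratios of 0.760 (0.631 to 0.914) and 0.714 (0.516 to 0.984). Fdft1, Cyp51, Hmgcs1 and Lss each overlap a gene on the opposite strand, and the sources used here do not say whether reads were counted by strand.

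Other enzymes of the same route had ratios above 1 in T cells, with intervals across 1. Pmvk, the kinase that follows mevalonate kinase, stood at 18.9 CPM in thonzonium bromide and 15.7 CPM in PBS T cells, a ratio of 1.21 (0.976 to 1.49). Mvd, the next enzyme, had a ratio of 1.33 (0.922 to 1.93), and Acat2, which condenses acetyl-CoA at the start, had 1.12 (0.840 to 1.49). The late enzymes Nsdhl, Hsd17b7 and Sc5d had ratios of 1.09, 1.07 and 1.05, each with an interval across 1. Ebp, the sterol isomerase, stood at 74.1 CPM in thonzonium bromide and 67.0 CPM in PBS T cells, a ratio of 1.11 (0.997 to 1.23). In all, 10 of the 17 sterol synthesis genes with enough UMIs had a ratio below 1 and 7 had a ratio above it. Their median log2 ratio was -0.33, with medians of the lower and upper bounds of -0.66 and 0.13, where the median of all genes was -0.07. Mvk and Dhcr7 had ratios of 0.942 and 0.795 with intervals across 1, and Tm7sf2 did not reach 50 UMIs.

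**Figure D1:**
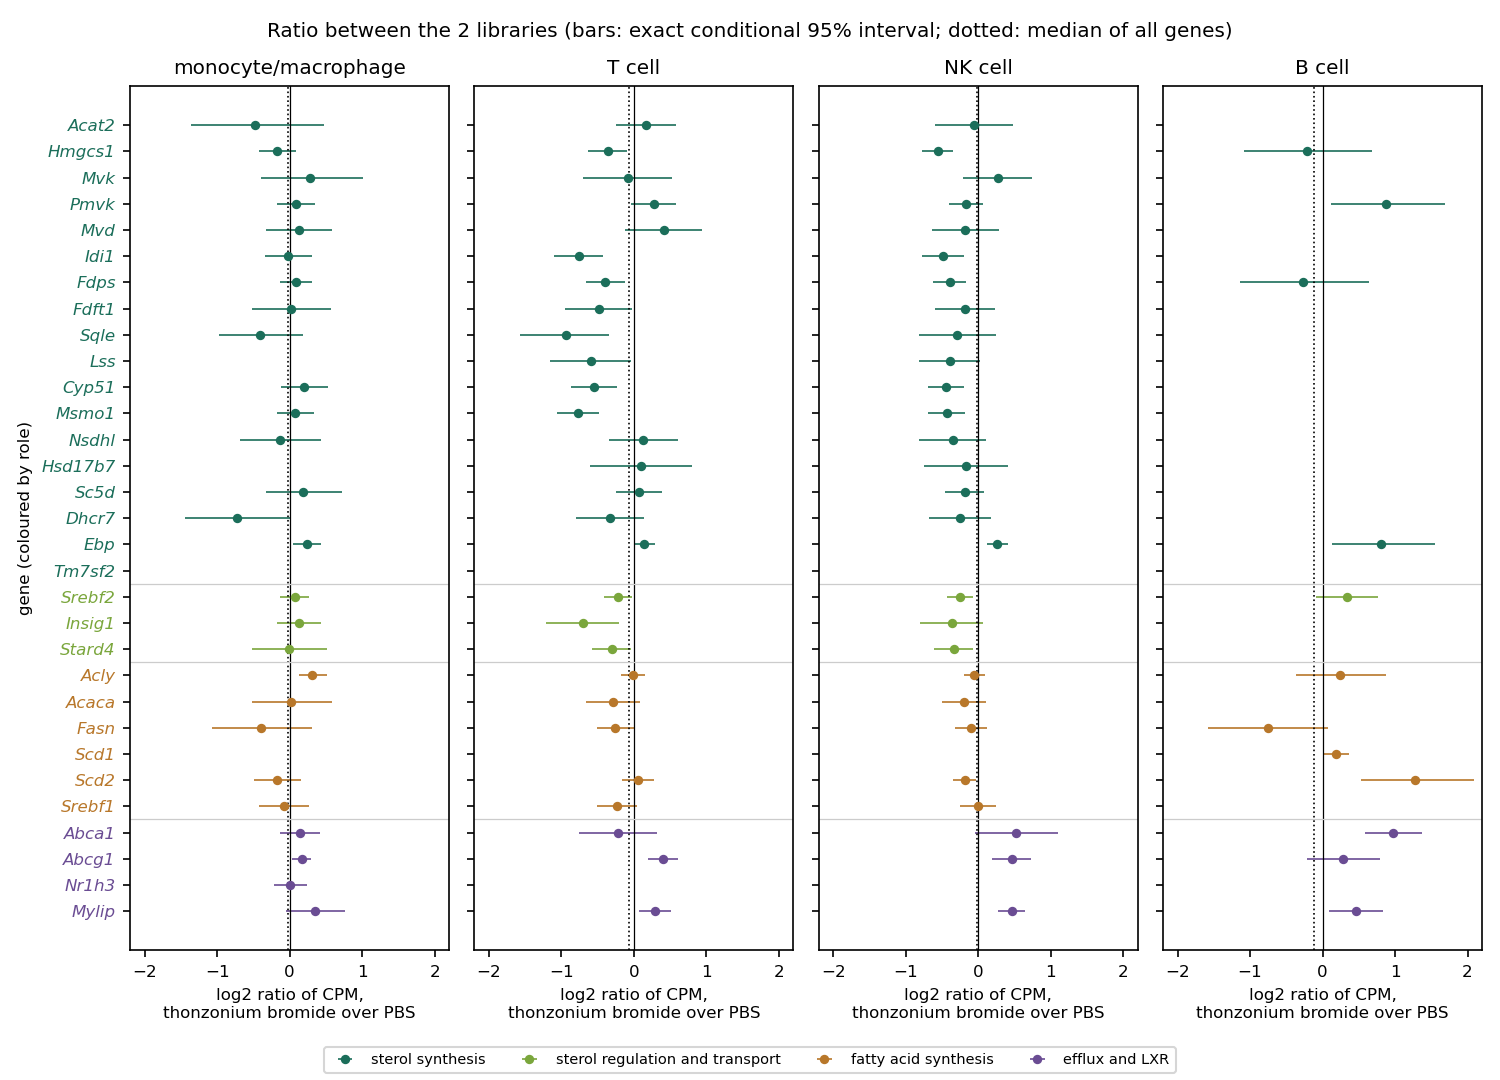
Log2 ratio of CPM, thonzonium bromide over PBS, for each gene with at least 50 UMIs in the monocyte/macrophage, T cell, NK cell and B cell gates, coloured by role. Points are ratios of the 2 libraries, bars are exact conditional 95% intervals (counting error only) and the dotted line is the median of all genes. The points of Idi1, Sqle, Msmo1 and Insig1 lie left of 0 in T cells, where the purple points of Abcg1 and Mylip lie right of it.

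The makeup of the T cell gate differed between the libraries. CD8 cells, those with at least 2 Cd8 UMIs, made up 45.6% of thonzonium bromide and 31.6% of PBS T cells, and Foxp3-positive cells 9.47% of thonzonium bromide and 17.2% of PBS T cells. With the same subtype and cycling weights in both libraries the sterol synthesis median was -0.34. Among CD8 T cells alone, 578 in the thonzonium bromide and 463 in the PBS library, it was -0.37 over 15 genes. There Idi1 stood at 10.7 CPM in thonzonium bromide and 24.9 CPM in PBS cells, a ratio of 0.430 (0.308 to 0.594), and Fdps at 17.4 CPM in thonzonium bromide and 29.8 CPM in PBS cells, a ratio of 0.584 (0.445 to 0.765). Both genes were more reduced in CD8 T cells than in T cells that were neither CD8 nor Foxp3-positive, with differences in log2 ratio of -0.77 (-1.45 to -0.08) for Idi1 and -0.73 (-1.27 to -0.19) for Fdps. Insig1 had ratios of 0.504 (0.278 to 0.893) in CD8 T cells and 0.876 (0.535 to 1.42) in those other T cells. Foxp3-positive cells held 1 thonzonium bromide and 14 PBS UMIs of Insig1, below the minimum. The CD8 cells came from different clusters in the 2 libraries. A cluster led by Gzmk and Cd8b1 held 213 thonzonium bromide and 10 PBS CD8 T cells, while a cluster led by Tcrg-C1 held 105 thonzonium bromide and 193 PBS CD8 T cells. Without the Gzmk-led cluster, a choice made after seeing the data, the CD8 median was -0.48 over 13 genes. The difference from the other T cells was then -0.50 (-1.20 to 0.20) for Idi1, an interval across 0, and -0.76 (-1.33 to -0.19) for Fdps. Haemoglobin RNA also moved with the libraries, with Hbb-bs at 119 CPM in thonzonium bromide and 388 CPM in PBS T cells. Without cells of 1% or more haemoglobin UMIs the median was again -0.33. The 6 non-immune markers summed to 1.98 CPM in thonzonium bromide and 16.6 CPM in PBS T cells, and barcodes in the non-immune gate had the sterol enzymes at a summed 742 CPM in the thonzonium bromide and 906 CPM in the PBS library. Without cells holding a UMI of these markers the T cell median was -0.31, with Msmo1 at -0.74.

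Natural killer (NK) cells of the thonzonium bromide library also had lower levels of much of the sterol pathway, though no gene of the set passed 1.5-fold. The gate held 1091 thonzonium bromide and 1171 PBS cells. None of the 28 genes with enough UMIs was called in either direction, where 3% of all 10375 genes were called lower and 1.77% higher. Hmgcs1 stood at 25.3 CPM in thonzonium bromide and 37.1 CPM in PBS NK cells, a ratio of 0.681 (0.587 to 0.789). Idi1 stood at 14.1 CPM in thonzonium bromide and 19.8 CPM in PBS NK cells, a ratio of 0.712 (0.582 to 0.870). Cyp51, Msmo1 and Fdps had ratios of 0.738, 0.740 and 0.761, each with an interval below 1. Ebp again ran the other way, at 71.0 CPM in thonzonium bromide and 59.3 CPM in PBS NK cells, a ratio of 1.20 (1.08 to 1.32). Of 17 sterol synthesis genes, 15 had a ratio below 1, with a median log2 ratio of -0.25 where that of all genes was -0.02. After thinning each cell to 1000 UMIs the median was 0.13, over the 3 genes that then kept enough UMIs. The NK clusters, counting cells of any gate, also differed in size between the libraries. A cluster led by Gzmf and Gzmc held 541 thonzonium bromide and 741 PBS cells. Another, led by Cma1 and Gzma, held 524 thonzonium bromide and 358 PBS cells. The part of this shift in the result was not tested. Markers of other cells moved in this gate too. The 5 erythroid markers summed to 214 CPM in thonzonium bromide and 573 CPM in PBS NK cells, and without cells of 1% or more haemoglobin UMIs the sterol median was again -0.25. The 7 monocyte/macrophage markers summed to 68.8 CPM in thonzonium bromide and 40.0 CPM in PBS NK cells, and their part in the result was not tested. The 6 non-immune markers summed to 19.3 CPM in thonzonium bromide and 15.8 CPM in PBS NK cells, and the median without cells holding a UMI of these was -0.26. The T and NK values come from the same libraries, so neither is a repeat of the other.

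Cycling state moved with these genes in NK cells. Cycling cells made up 13.1% of thonzonium bromide and 20.6% of PBS NK cells, against 13.97% of thonzonium bromide and 13.98% of PBS T cells. Within each library, cycling NK cells had more of the sterol enzymes than NK cells that were not cycling, with median log2 ratios of 0.99 in the thonzonium bromide and 0.81 in the PBS library. Sqle stood at 11.4 CPM in cycling and 2.75 CPM in non-cycling NK cells of the thonzonium bromide library, and at 9.09 CPM in cycling and 4.16 CPM in non-cycling NK cells of the PBS library. Fdps stood at 53.2 CPM in cycling and 15.5 CPM in non-cycling cells of the thonzonium bromide library, and at 47.6 CPM in cycling and 24.1 CPM in non-cycling cells of the PBS library. The efflux genes ran the other way, with Abcg1 at 9.18 CPM in cycling and 27.1 CPM in non-cycling NK cells of the thonzonium bromide library. Split by state, the median log2 ratio of thonzonium bromide over PBS was -0.12 among cycling and -0.27 among non-cycling NK cells. The summed CPM of the 18 enzymes had ratios of 0.958 (0.886 to 1.04) in cycling and 0.892 (0.840 to 0.947) in non-cycling NK cells. Fdps differed between the states, with log2 ratios of 0.16 in cycling and -0.64 in non-cycling cells, a difference of 0.80 (0.36 to 1.24).

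In T cells the link to cycling was narrower. The median log2 ratio of cycling over non-cycling T cells was 0.29 in the thonzonium bromide and 0.44 in the PBS library. Idi1 stood at 24.1 CPM in cycling and 7.196 CPM in non-cycling T cells of the thonzonium bromide library, and at 32.7 CPM in cycling and 14.4 CPM in non-cycling T cells of the PBS library. Msmo1 did not follow, at 13.9 CPM in cycling and 15.4 CPM in non-cycling T cells of the thonzonium bromide library. The summed ratio of the sterol enzymes, thonzonium bromide over PBS, was 0.887 (0.806 to 0.975) in cycling and 0.890 (0.834 to 0.9503) in non-cycling T cells, a difference in log2 ratio of -0.01 (-0.17 to 0.16). The median log2 ratio was -0.44 over 10 genes in cycling and -0.27 over 16 genes in non-cycling T cells. For Idi1 alone the log2 ratio was -0.44 in cycling and -1.003 in non-cycling T cells, a difference of 0.56 (-0.09 to 1.21).

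Monocytes and macrophages showed little difference in sterol synthesis. This gate held 1569 thonzonium bromide and 649 PBS cells. Of 27 genes with enough UMIs, 1 was called lower and 0 higher, where 5.98% of all 9703 genes were called lower and 2.42% higher. That gene was Dhcr7, the last reductase to cholesterol, at 3.25 CPM in thonzonium bromide and 5.39 CPM in PBS cells, a ratio of 0.603 with an interval that reached 1 (0.368 to 1.01). Its log2 ratio was -0.37 with clusters in place of gates. Hmgcs1, Idi1, Cyp51 and Msmo1 had ratios of 0.890, 0.984, 1.15 and 1.06, each with an interval across 1. Ebp stood at 70.1 CPM in thonzonium bromide and 59.7 CPM in PBS cells, a ratio of 1.17 (1.03 to 1.34). The median log2 ratio of 15 sterol genes was 0.08, where that of all genes was -0.02. Classical monocytes made up 66.9% of thonzonium bromide and 57.0% of PBS cells of this gate, and with the same subtype and cycling weights in both libraries the median was 0.05. The 5 neutrophil markers summed to 530 CPM in thonzonium bromide and 144 CPM in PBS cells of this gate, and their part in the result was not tested. The 5 erythroid markers summed to 133 CPM in thonzonium bromide and 520 CPM in PBS cells, and the median without cells of 1% or more haemoglobin UMIs was again 0.08.

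The lymphoid and monocyte/macrophage ratios differed beyond counting error for several enzymes. The log2 ratio of Msmo1 was lower in T cells than in monocytes and macrophages by a difference of -0.85 (-1.23 to -0.47), and that of Cyp51 by -0.75 (-1.19 to -0.31). For Idi1 the difference between T cells and monocytes and macrophages was -0.74 (-1.19 to -0.29), and for Insig1 it was -0.83 (-1.40 to -0.26). Between NK cells and monocytes and macrophages the difference was -0.64 (-1.04 to -0.24) for Cyp51 and -0.39 (-0.71 to -0.06) for Hmgcs1. T and NK cells differed in Pmvk, by 0.44 (0.07 to 0.82).

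**Figure D2:**
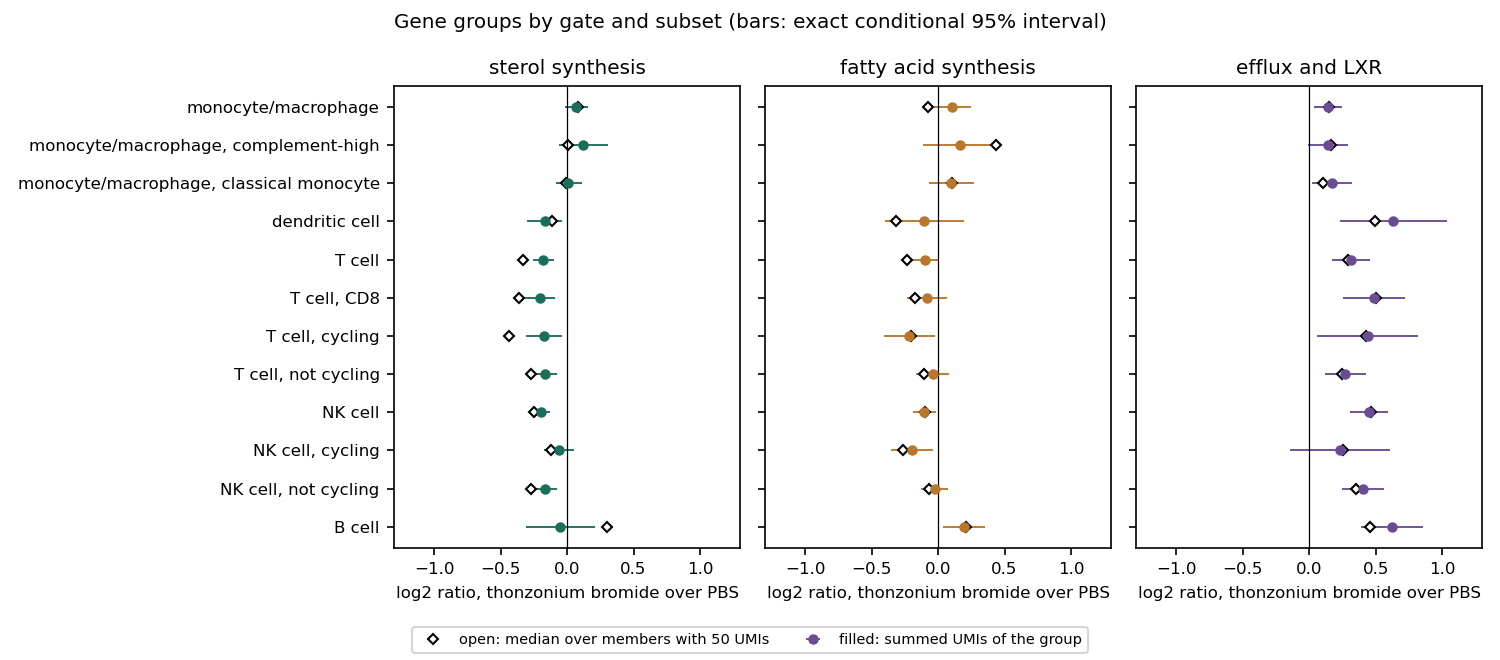
Log2 ratio, thonzonium bromide over PBS, of 3 gene groups in each gate and subset. Filled points are ratios of summed CPM with exact conditional 95% intervals, and open diamonds are medians over the genes with at least 50 UMIs. Sterol synthesis lies left of 0 in T and NK cells and close to 0 in monocytes and macrophages, and efflux and LXR genes lie right of 0.

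Among the regulators, Srebf2 encodes the SREBP that drives sterol synthesis and Stard4 a protein that carries cholesterol between membranes. Srebf2 stood at 40.6 CPM in thonzonium bromide and 47.4 CPM in PBS T cells, a ratio of 0.858 (0.752 to 0.978). In NK cells it stood at 41.1 CPM in thonzonium bromide and 48.8 CPM in PBS cells, a ratio of 0.841 (0.745 to 0.949). Stard4 had ratios of 0.807 (0.668 to 0.974) in T cells and 0.790 (0.655 to 0.953) in NK cells. The Stard4 log2 ratio in T cells changed sign after thinning each cell to 1000 UMIs, to 0.18. In monocytes and macrophages Srebf2, Insig1 and Stard4 had ratios of 1.05, 1.09 and 0.990, with intervals across 1. Among the complement-high macrophages, Srebf2 stood at 31.9 CPM in the thonzonium bromide and 45.6 CPM in the PBS library, a ratio of 0.698 (0.514 to 0.956). Among classical monocytes it stood at 66.5 CPM in the thonzonium bromide and 57.0 CPM in the PBS library, a ratio of 1.17 (0.986 to 1.39).

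No gene of fatty acid synthesis was called in T or NK cells. Acly makes the cytosolic acetyl-CoA that both routes use, Acaca carboxylates it, Fasn assembles palmitate, Scd1 and Scd2 desaturate the product, and Srebf1 encodes the SREBP of this branch. Acly stood at 54.7 CPM in thonzonium bromide and 55.2 CPM in PBS T cells, a ratio of 0.992 (0.882 to 1.12). Fasn stood at 22.8 CPM in thonzonium bromide and 27.2 CPM in PBS T cells, a ratio of 0.837 (0.702 to 0.998). Acaca had ratios of 0.819 in T and 0.876 in NK cells, with intervals across 1. Over the 5 genes with enough UMIs the median log2 ratio was -0.24 in T and -0.10 in NK cells. In monocytes and macrophages Acly was higher, at 72.1 CPM in thonzonium bromide and 58.0 CPM in PBS cells, a ratio of 1.24 (1.09 to 1.42). The Acly log2 ratio was lower in T cells than in monocytes and macrophages by a difference of -0.33 (-0.58 to -0.07).

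Abcg1 and Mylip had ratios above 1 in T and NK cells, though no efflux or LXR gene was called there. Abcg1, which passes cholesterol to high-density lipoprotein, stood at 41.8 CPM in thonzonium bromide and 31.7 CPM in PBS T cells, a ratio of 1.32 (1.14 to 1.52). In NK cells it stood at 23.1 CPM in thonzonium bromide and 16.8 CPM in PBS cells, a ratio of 1.38 (1.15 to 1.66), but the log2 ratio was -0.01 after thinning each cell to 1000 UMIs. Mylip stood at 37.6 CPM in thonzonium bromide and 30.8 CPM in PBS T cells, a ratio of 1.22 (1.05 to 1.42). In NK cells Mylip stood at 48.1 CPM in thonzonium bromide and 35.0 CPM in PBS cells, a ratio of 1.38 (1.21 to 1.56). Abca1, which loads cholesterol onto apolipoprotein, had ratios of 0.860 (0.590 to 1.25) in T cells and 1.43 (0.966 to 2.14) in NK cells. Summed over the 4 genes the ratio was 1.24 (1.13 to 1.37) in T cells and 1.37 (1.24 to 1.51) in NK cells, while for the 18 sterol enzymes it was 0.883 (0.837 to 0.932) in T cells and 0.872 (0.831 to 0.914) in NK cells.

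Monocytes and macrophages had RNA of the LXR gene Nr1h3 and small differences in LXR targets. The other LXR gene, Nr1h2, is outside the set and was only counted among the other genes of these pathways. Nr1h3, which encodes LXR alpha, stood at 43.1 CPM in thonzonium bromide and 42.9 CPM in PBS cells of this gate, a ratio of 1.00 (0.857 to 1.18). Abcg1 stood at 138 CPM in thonzonium bromide and 123 CPM in PBS cells, a ratio of 1.12 (1.02 to 1.23). Abca1 and Mylip had ratios of 1.10 and 1.27, with intervals across 1. An Nr1h3 UMI was found in 19.8% of thonzonium bromide and 15.6% of PBS monocytes and macrophages. It was found in 0 of 482 thonzonium bromide B cells, which allows a share of up to 0.622%, and in 0 of 225 PBS B cells, which allows up to 1.33%, a limit on cells with an Nr1h3 UMI at their depth and not on cells that express the gene. After thinning to 1000 UMIs the share in monocytes and macrophages was 3.72% in the thonzonium bromide and 3.01% in the PBS library. Median depths were 9561 UMIs in thonzonium bromide and 6928 UMIs in PBS monocytes and macrophages. Median depths of B cells were 3672.5 UMIs in the thonzonium bromide and 3832 UMIs in the PBS library. Nr1h3 overlaps the model gene Gm13783 on the same strand, so its reads may be shared.

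Macrophage subtypes divided the 2 arms of sterol handling within each library. Complement-high macrophages are the cells of this gate with at least 3 C1q UMIs, and classical monocytes the other cells with at least 5 UMIs of Ly6c2, Vcan, Chil3 and Ccr2. Nr1h3 stood at 81.9 CPM in complement-high macrophages and 27.0 CPM in classical monocytes of the thonzonium bromide library, and at 87.6 CPM in complement-high macrophages and 18.7 CPM in classical monocytes of the PBS library. Abcg1 stood at 214 CPM in complement-high macrophages and 104 CPM in classical monocytes of the thonzonium bromide library, and at 188 CPM in complement-high macrophages and 95.7 CPM in classical monocytes of the PBS library. The sterol enzymes ran the other way, with median log2 ratios of complement-high macrophages over classical monocytes of -0.80 in the thonzonium bromide and -0.95 in the PBS library. Msmo1 stood at 19.5 CPM in complement-high macrophages and 42.6 CPM in classical monocytes of the thonzonium bromide library, and at 23.2 CPM in complement-high macrophages and 39.0 CPM in classical monocytes of the PBS library. The order of the subtypes was thus the same in both libraries for these 3 genes. Within the complement-high cells, Fdps stood at 37.7 CPM in the thonzonium bromide and 21.0 CPM in the PBS library, a ratio of 1.79 (1.20 to 2.76). Within classical monocytes Fdps had a ratio of 0.932, and the difference in log2 ratio between the subtypes was 0.94 (0.32 to 1.56).

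**Figure D3:**
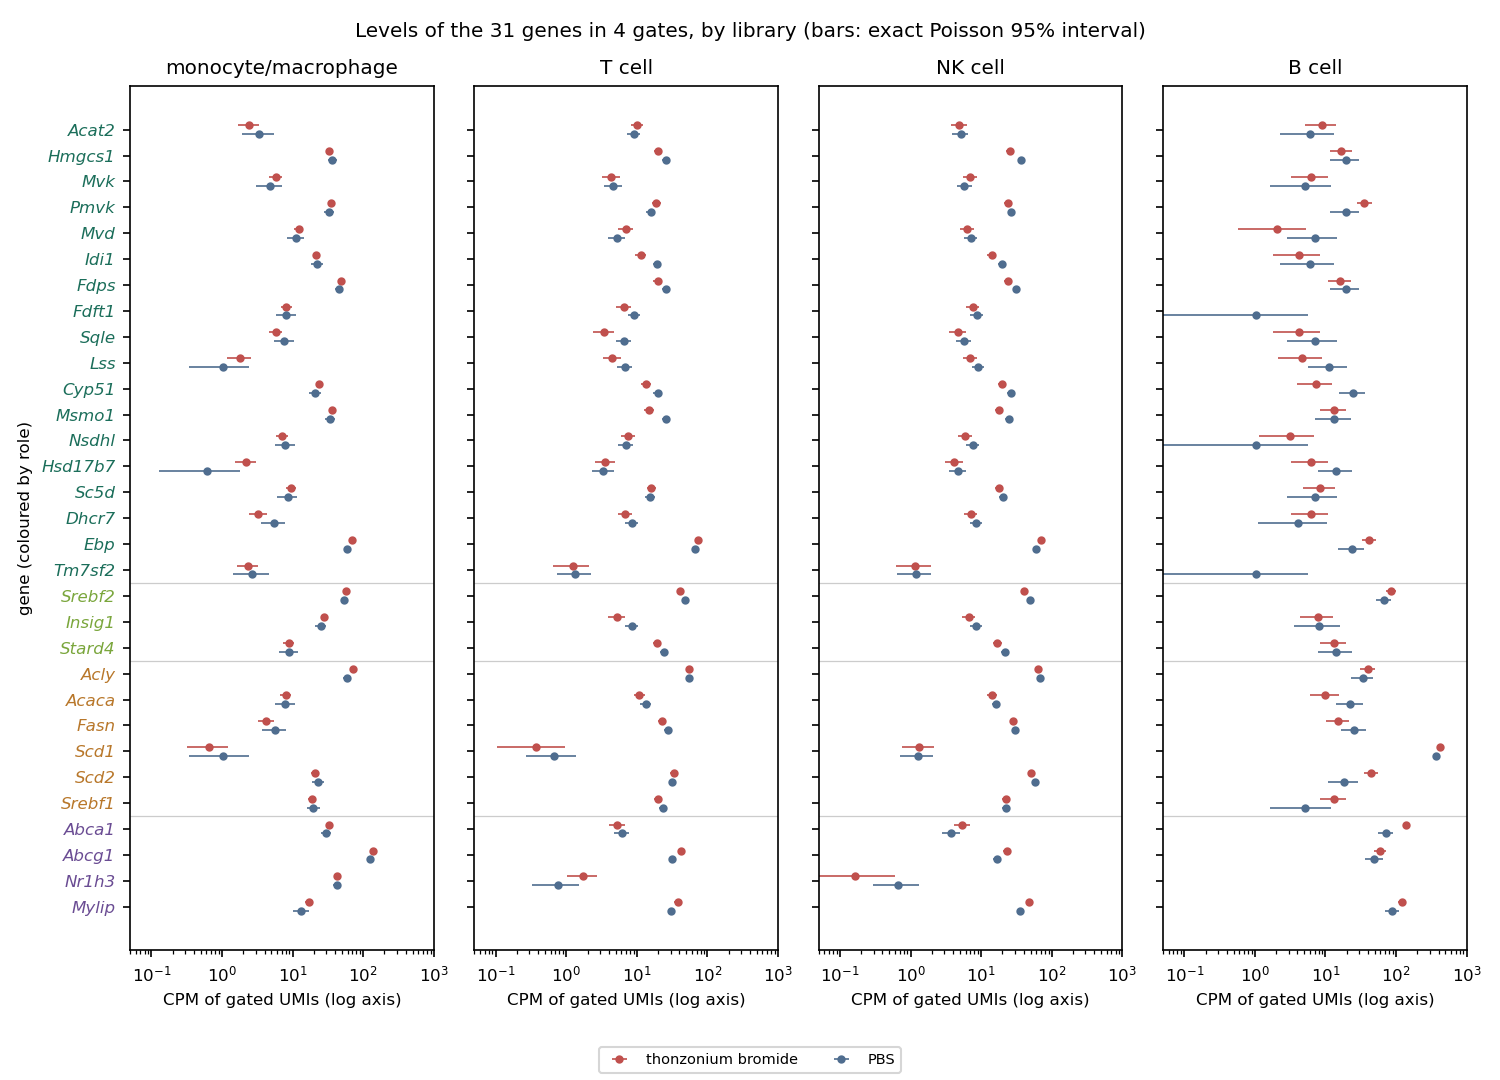
CPM on a log axis of the 31 genes in 4 gates, with the thonzonium bromide library in red and the PBS library in blue. Bars are exact Poisson 95% intervals (counting error only), and a gene listed at 0 has no point. Scd1 stands above 100 CPM in the B cell panel alone, and Nr1h3 above 10 CPM in the monocyte/macrophage panel alone.

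B cells stood apart through Scd1, the desaturase that makes monounsaturated fatty acids. The gate held 482 thonzonium bromide and 225 PBS cells. Scd1 stood at 417 CPM in thonzonium bromide and 366 CPM in PBS B cells, a ratio of 1.14 (1.00 to 1.29). In T cells it stood at 0.378 CPM in the thonzonium bromide and 0.673 CPM in the PBS library, and in monocytes and macrophages at 0.663 CPM in the thonzonium bromide and 1.04 CPM in the PBS library. After thinning to 1000 UMIs, an Scd1 UMI was found in 34.8% (30.5 to 39.2) of thonzonium bromide and 33.8% (27.6 to 40.4) of PBS B cells. Unthinned, the shares of B cells were 74.1% in the thonzonium bromide and 69.3% in the PBS library, and those of T cells were 0.316% in the thonzonium bromide and 0.477% in the PBS library. Median depths of T cells were 6939 UMIs in the thonzonium bromide and 5392 UMIs in the PBS library.

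Between the libraries, 12 of the 31 genes had enough UMIs in B cells, and 4 were called higher and 1 lower, where 5.39% of all 5883 genes were called higher and 15.2% lower. Abca1 stood at 141 CPM in thonzonium bromide and 71.6 CPM in PBS B cells, a ratio of 1.964 (1.505 to 2.59). Scd2, the other desaturase, stood at 44.4 CPM in thonzonium bromide and 18.4 CPM in PBS B cells, a ratio of 2.41 (1.44 to 4.27). Pmvk stood at 35.5 CPM in thonzonium bromide and 19.4 CPM in PBS B cells, a ratio of 1.83 (1.09 to 3.22). Ebp stood at 41.3 CPM in thonzonium bromide and 23.5 CPM in PBS B cells, a ratio of 1.76 (1.09 to 2.93). Fasn was the gene called lower, at 15.2 CPM in thonzonium bromide and 25.6 CPM in PBS B cells, with an interval across 1 (0.335 to 1.06), and it missed 1.5-fold when each cell was scaled alike. Mylip stood at 121 CPM in thonzonium bromide and 88.0 CPM in PBS B cells, a ratio of 1.37 (1.07 to 1.78). The Abca1 log2 ratio exceeded that of T cells by 1.19 (0.55 to 1.83) and that of monocytes and macrophages by 0.83 (0.37 to 1.299). Haemoglobin-related markers moved here as well, with a summed level of the 5 erythroid markers of 171 CPM in thonzonium bromide and 775 CPM in PBS B cells. The 6 non-immune markers summed to 1.57 CPM in thonzonium bromide and 170 CPM in PBS B cells. Without cells holding a UMI of these markers, the log2 ratio was 0.80 for Abca1 and 1.41 for Scd2, and both stayed past 1.5-fold under each alternative in which they kept 50 UMIs.

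Dendritic cells were few, with 123 cells in the thonzonium bromide and 95 in the PBS library, and 13 of the 31 genes had enough UMIs. Of these, 3 were called lower and 0 higher, where 7.88% of all 5597 genes were called lower and 4.65% higher. Insig1 stood at 12.3 CPM in thonzonium bromide and 33.4 CPM in PBS dendritic cells, a ratio of 0.369 (0.199 to 0.663). Hmgcs1 stood at 68.0 CPM in thonzonium bromide and 119 CPM in PBS dendritic cells, a ratio of 0.571 (0.436 to 0.746). Msmo1 stood at 40.8 CPM in thonzonium bromide and 62.0 CPM in PBS dendritic cells, a ratio of 0.659 (0.458 to 0.946). The other sterol enzymes did not all follow, since Idi1 had a ratio of 1.01 (0.744 to 1.39) and Fdps one of 1.22 (0.979 to 1.51). Srebf2 was higher, at 131 CPM in thonzonium bromide and 98.2 CPM in PBS dendritic cells, a ratio of 1.33 (1.05 to 1.71), and Abcg1 had a ratio of 1.41 (1.04 to 1.93). Markers of other cells moved too. The 5 cycling markers summed to 18.1 CPM in thonzonium bromide and 94.4 CPM in PBS dendritic cells, and the 5 plasmacytoid markers to 203 CPM in thonzonium bromide and 378 CPM in PBS dendritic cells. Their part in the result was not tested. The 6 non-immune markers summed to 0.648 CPM in thonzonium bromide and 107 CPM in PBS dendritic cells. Without cells holding a UMI of these, the log2 ratio was -0.71 for Hmgcs1 and -1.46 for Insig1, and Msmo1, at -0.43, missed 1.5-fold, as it did under 6 of 9 alternatives in all.

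The smallest gates are described mainly by level. Plasmacytoid dendritic cells, 17 in the thonzonium bromide and 69 in the PBS library, had Fdps at 211 CPM in the thonzonium bromide and 267 CPM in the PBS library. Their Msmo1 stood at 118 CPM in the thonzonium bromide and 142 CPM in the PBS library, with an interval of the ratio across 1. Neutrophils, 177 in the thonzonium bromide and 89 in the PBS library, had 1 gene of the set with enough UMIs. This was Abcg1, at 125 CPM in thonzonium bromide and 99.7 CPM in PBS neutrophils, a ratio of 1.25 (0.806 to 2.00).

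Myeloid cells (monocytes and macrophages, dendritic cells and neutrophils) were then set against lymphoid cells (T, NK and B cells) within each library. A gene was called at 2-fold. Pmvk and Fdps were called higher in myeloid cells of both libraries, as were Insig1, Abcg1 and Nr1h3. Dendritic cells, pooled here, carried Pmvk and Fdps more often than monocytes and macrophages. After thinning, a Pmvk UMI was found in 22.0% of thonzonium bromide and 17.9% of PBS dendritic cells. In monocytes and macrophages it was found in 2.89% of thonzonium bromide and 2.69% of PBS cells. Fdps shares were 11.4% (thonzonium bromide) and 10.5% (PBS) in dendritic cells, and 4.56% and 2.22% in monocytes and macrophages. The dendritic part in these calls was not tested. Acat2, Lss, Fasn, Scd1 and Mylip were called lower in myeloid cells of both libraries. Scd1 was called through the B cells. They held 798 of the 818 lymphoid Scd1 UMIs in the thonzonium bromide library and 358 of 380 in the PBS library. In T cells and in monocytes and macrophages Scd1 was low alike, as given above. In the thonzonium bromide library 6 of 18 sterol synthesis genes were called higher (Pmvk, Mvd, Idi1, Fdps, Msmo1 and Tm7sf2) and 2 lower, where 18.2% of all 11651 genes were called higher and 27.6% lower. In the PBS library 2 of 17 were called higher and 3 lower, where 15.7% of all 11286 genes were called higher and 24.3% lower. Their median log2 ratio was 0.50 in the thonzonium bromide and 0.21 in the PBS library, and that of all genes was -0.32 in the thonzonium bromide and -0.30 in the PBS library. For monocytes and macrophages alone, the sterol synthesis median depended on the lymphoid gate. In the thonzonium bromide library it was 0.26 over NK, 0.41 over T and 0.86 over B cells. In the PBS library it was -0.02 over NK, 0.13 over T and 1.07 over B cells. Against PBS NK cells, 0 of 17 genes were called higher and 3 lower, so Pmvk and Fdps were not called higher there.

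Fdps stood at 56.4 CPM in myeloid and 21.5 CPM in lymphoid cells of the thonzonium bromide library, a ratio of 2.62 (2.35 to 2.92). In the PBS library Fdps stood at 57.4 CPM in myeloid and 28.5 CPM in lymphoid cells, a ratio of 2.02 (1.77 to 2.30). Lss was the reverse, at 2.08 CPM in myeloid and 5.71 CPM in lymphoid cells of the thonzonium bromide library and at 1.79 CPM in myeloid and 8.16 CPM in lymphoid cells of the PBS library. Insig1 was among the clearest myeloid genes, at 25.4 CPM in myeloid and 6.12 CPM in lymphoid cells of the thonzonium bromide library, and at 25.7 CPM in myeloid and 8.50 CPM in lymphoid cells of the PBS library. Stard4 was lower in myeloid cells, with ratios of 0.533 in the thonzonium bromide and 0.458 in the PBS library.

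Of the fatty acid genes, Fasn stood at 5.65 CPM in myeloid and 24.9 CPM in lymphoid cells of the thonzonium bromide library, and at 7.81 CPM in myeloid and 28.7 CPM in lymphoid cells of the PBS library. Scd2 was also lower in myeloid cells, with ratios of 0.491 in the thonzonium bromide and 0.570 in the PBS library. The group median was -0.81 in the thonzonium bromide and -0.86 in the PBS library, with Scd1, which rests on B cells, among its genes. For monocytes and macrophages over T cells, 5 genes had enough UMIs. Their median was -0.45 in the thonzonium bromide and -0.46 in the PBS library. Srebf1 did not separate the lineages in the same measure, with ratios of 0.901 (0.781 to 1.04) in the thonzonium bromide and 0.819 (0.661 to 1.01) in the PBS library.

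The efflux group was split by lineage. Nr1h3 stood at 38.1 CPM in myeloid and 0.810 CPM in lymphoid cells of the thonzonium bromide library, and at 33.9 CPM in myeloid and 0.687 CPM in lymphoid cells of the PBS library. Abcg1 stood at 133 CPM in myeloid and 33.9 CPM in lymphoid cells of the thonzonium bromide library, and at 111 CPM in myeloid and 24.8 CPM in lymphoid cells of the PBS library. Mylip was the lymphoid member, at 18.0 CPM in myeloid and 49.3 CPM in lymphoid cells of the thonzonium bromide library, and at 13.7 CPM in myeloid and 35.3 CPM in lymphoid cells of the PBS library. Abca1 did not divide the lineages in a single way. It stood at 32.6 CPM in monocytes and macrophages, 5.29 CPM in T cells and 141 CPM in B cells of the thonzonium bromide library, and at 29.6 CPM in monocytes and macrophages, 6.15 CPM in T cells and 71.6 CPM in B cells of the PBS library. When each of the 3 myeloid and 3 lymphoid gates was given the same weight, the log2 ratio of Abca1 in the PBS library was -0.33, against 1.71 with gates weighted by their UMIs. The group median in the thonzonium bromide library was then 0.24, against 1.45. With neutrophils left out of this weighting, Abca1 in the PBS library was at -0.79 and the group median in the thonzonium bromide library at -0.094.

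**Figure D4:**
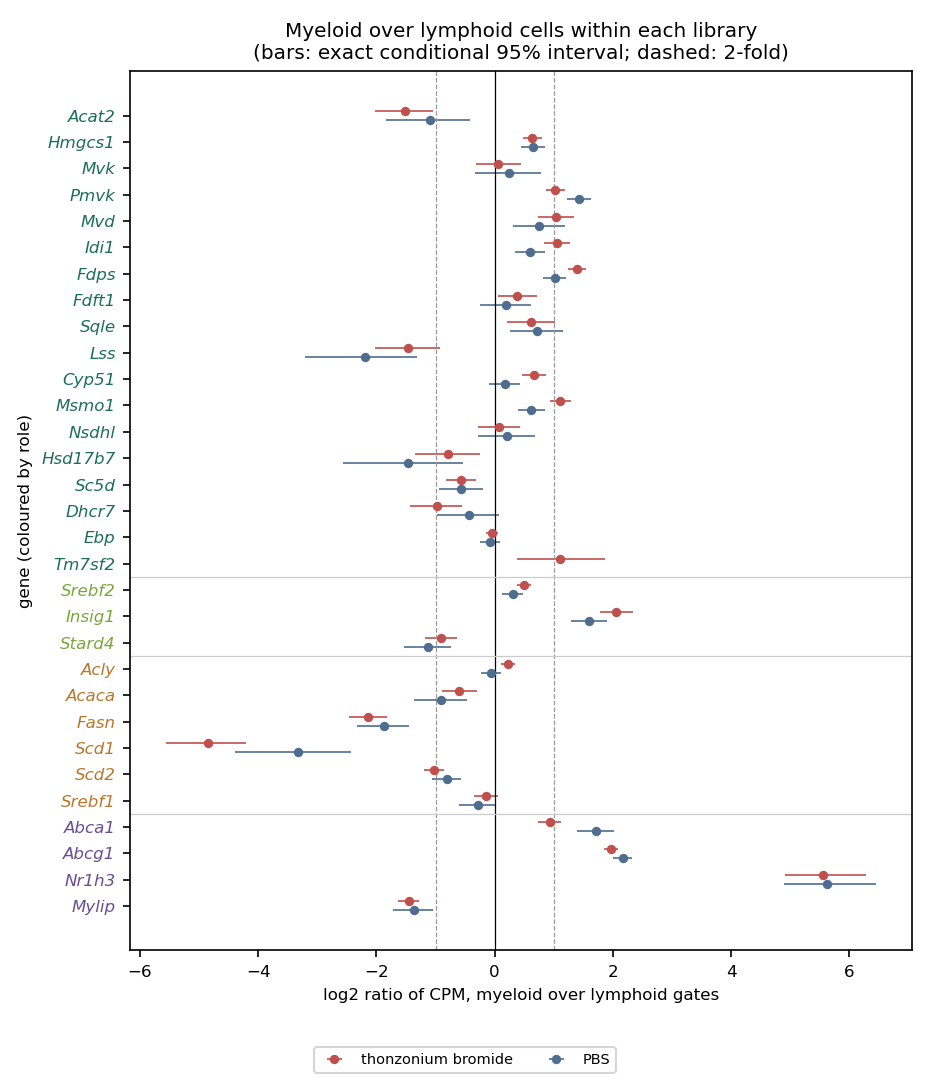
Log2 ratio of CPM, myeloid over lymphoid cells, for each gene within the thonzonium bromide (red) and PBS (blue) library. Bars are exact conditional 95% intervals (counting error only) and dashed lines mark 2-fold. Nr1h3, Abcg1 and Insig1 lie to the right and Scd1, Fasn and Mylip to the left in both libraries. The Scd1 points rest on B cells.

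Other genes of these pathways, 24 in number and outside the set, were counted by the same rule. In T cells 3 of 22 were called lower and 0 higher, where 4.24% of all genes were called lower and 1.61% higher. These were Elovl6, a fatty acid elongase, at 16.8 CPM in thonzonium bromide and 28.1 CPM in PBS cells, and Fads1 and Apoe. Fads1, a desaturase, had a ratio of 0.492, and Apoe, the lipoprotein gene, had 0.536. The 7 monocyte/macrophage markers summed to 74.7 CPM in thonzonium bromide and 64.7 CPM in PBS T cells. Whether the Apoe RNA of T cells was carried over from macrophages was not tested. In monocytes and macrophages 1 of 22 was called lower and 0 higher, against 5.98% of all genes lower and 2.42% higher, and this was Elovl6 with a ratio of 0.624 (0.421 to 0.938). In NK cells 0 of 22 were called, against 3% of all genes lower and 1.77% higher. In B cells 1 of 17 was called lower, against 15.2% of all genes. In dendritic cells 1 of 13 was called higher and 1 lower, against 4.65% of all genes higher and 7.88% lower. Of the LXR targets on this list, Apoe stood at 1031 CPM in thonzonium bromide and 1474 CPM in PBS monocytes and macrophages, so it did not move with Abcg1 there.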

How the data were processed

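The values used are whole UMI counts of each gene in each barcode, deposited as Cell Ranger 6.1.2 wrote them, per the file headers. Seurat 3.0, R 3.5.3 and mm10 are named in the submitters' notes on processing. Whether reads were counted by strand is not given in the sources used here. The members, gene lists and marker lists were chosen with earlier results of these data known.

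Barcodes needed 200 genes or more, with mitochondrial UMIs making up 20% or less. Gates asked for a minimum of UMIs of a marker list and few of the other lists. Cells passing more than 1 gate were left out, and no doublet caller was run. UMIs were summed per gate and library and scaled to CPM with exact Poisson 95% intervals. Ratios have exact conditional binomial intervals, shares exact Clopper-Pearson intervals, and differences between log2 ratios an approximate interval from the counts. A limit for a count of 0 used 3 counts. These cover counting error only, since the cells of a library share their mice, sort and droplet run. Each cell was thinned to 1000 UMIs for shares and as an alternative. Other alternatives changed the scaling, the mitochondrial and UMI minimums, the gates (stricter, or Leiden clusters in their place) and the cells kept, including a run without the top 10% of cells by UMIs. All 31 genes are accounted for. Those given in full had the highest or lowest ratio of a role, the highest CPM, or a direction that differed between gates, and the others are summarised. The calculations used Python 3.11.15, numpy 2.4.6, scipy 1.17.1 and leidenalg 0.10.2 and were tested on simulated data.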

Additional observations from a re-analysis of the deposited data

Results flagged for a closer look

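For 2 genes the intervals of the ratio lay on opposite sides of 1 in a pair of gates, and with 1 library per treatment no test stands behind this. The log2 ratio of Srebf2, thonzonium bromide over PBS, was 0.41 in dendritic cells and -0.22 in T cells, with opposite signs. In NK cells the Srebf2 log2 ratio was -0.25, again opposite to the 0.41 of dendritic cells. The difference between dendritic and T cells was 0.64 (0.25 to 1.03, counting error only). The log2 ratio of Scd2 was 1.27 in B cells and -0.18 in NK cells, a difference of 1.45 (0.70 to 2.205).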

How the results depend on the processing

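No paired analysis was possible because each treatment has 1 library. Each main median has a range of bounds, from the median of its genes' lower bounds to the median of their upper bounds. This range carries the counting error of single genes and does not measure the spread among genes. Of the group medians recomputed under other settings, 147 of 170 values lay within the range of the main value and 23 outside it. The sign changed for 5 of the 14 medians, each under 1 setting. The sterol synthesis median in T cells stayed between -0.38 and -0.18, and in monocytes and macrophages between 0.05 and 0.40. Thinning to 1000 UMIs turned the NK cell sterol median to 0.13, against -0.25 unthinned, over 3 genes, and the T cell fatty acid median to 0.25, against -0.24, over 4. It put the monocyte/macrophage fatty acid median at 0.10, against -0.08, over 1 gene. With no minimum on UMIs the B cell sterol median was -0.12, against 0.30. The main ranges of bounds of these 4 included 0. With clusters in place of gates the dendritic sterol median was -0.81, over 3 genes. The cluster named dendritic, led by Ccl22 and Il12b, held 87 of the gated dendritic cells, and 130 lay in clusters without a name. That median thus covers a different set of cells from the gate. For myeloid over lymphoid cells, thinning gave 1.08 for sterol synthesis, -1.19 for fatty acid synthesis and 0.91 for efflux in the thonzonium bromide library, and -0.45 for fatty acid synthesis and 0.17 for efflux in the PBS library. Centring on the median of all genes, which was -0.32 in the thonzonium bromide and -0.30 in the PBS library, gave 0.81, -0.50 and 1.76 for these 3 groups in the thonzonium bromide library and 2.23 for efflux in the PBS library. Scaling each cell alike gave 0.87 for efflux in the thonzonium bromide and 1.39 in the PBS library, and leaving out the top 10% of cells by UMIs gave 1.29 in the thonzonium bromide library. Weighting the 3 gates of each lineage alike, chosen after seeing the data, gave 0.80 for sterol synthesis and 0.24 for efflux in the thonzonium bromide library, and 0.61 for efflux and -0.33 for Abca1, which reversed, in the PBS library. With neutrophils left out of this weighting it gave 1.25 for sterol synthesis and -0.41 for fatty acid synthesis in the thonzonium bromide library. The same weighting put efflux there at -0.0941, reversed from a range of bounds above 0. In the PBS library it then gave 0.81 for sterol synthesis, 0.36 for efflux and -0.79 for Abca1. Abca1 stood at 0 CPM in thonzonium bromide and 1.91 CPM in PBS dendritic cells, and at 43.0 CPM in thonzonium bromide and 33.2 CPM in PBS neutrophils. Leaving out cells of 1% or more haemoglobin UMIs, or cells with a non-immune marker UMI, was also chosen after seeing the data. Neither moved a median beyond its range of bounds. The cause of the moves given above was not tested. Genes under 50 UMIs, 19 of 31 in B cells, could not be read at this depth.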
